A study of Mus musculus with 45 samples.

Results

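Embryoid bodies (EBs) of a scrambled control line (SCR) were compared with those of the wild-type line (WT) after 8 days of differentiation. The comparison rests on 6 of the 45 arrays of the series, 3 for each line, taken by sample title, and on the 34945 of 45037 probe sets that carry 1 gene symbol. They stand for 18193 genes. Both lines are male murine embryonic stem cells (ESCs) of strain 129, allowed to differentiate as aggregates in hanging drops. WT carries no modification by its label. SCR carries a scrambled control, and nothing is said of how it was introduced or of whether the line is a single clone. The question that such a pair of lines addresses is what a control construct and the handling of its line change without the silencing of a gene. Another line, labelled as silenced for Strip2 (KD), was grown beside them, and its levels at day 8 are given where they help to place a value. Strip2 encodes a subunit of the STRIPAK phosphatase and kinase complexes. Its probe set read 2.99, 2.93 and 3.08 in the WT arrays and 3.48, 2.98 and 2.96 in the SCR arrays, close to the lowest log2 signals of the data, and no difference between the lines passed the test (0.14 ± 0.19, SE, limma adjusted p = 0.81). In the arrays labelled KD it averaged 3.18, so at day 8 it does not check that label. At days 12 and 16, later stages of the series, Strip2 was higher in SCR than in WT by 1.55 and 1.97. The limma adjusted p was 4.1e-07 at day 12 and 1.3e-09 at day 16.

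An EB is a mixed tissue. Mesoderm within it gives rise to cardiac muscle that begins to beat, and to primitive blood and vessels, while an outer layer of visceral endoderm takes up and secretes lipid and vitamin carriers as the yolk sac does in the embryo. Cardiac muscle is recognised by its sarcomere, the array of thick myosin and thin actin filaments with their troponins, and by transcription factors such as Nkx2-5, Tbx5, Isl1 and Mef2c, which act before and with it. In whole EBs, fewer cells of a type and less RNA per cell cannot be told apart.

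All values are the deposited log2 signals, in which a difference of 1 is a doubling. A gene is said to be called where its adjusted p in the limma fit over all 45 arrays was under 0.05. Array medians were 5.06 to 5.11 at day 8. The mean over 25 pluripotency genes was 10.83 in WT ESCs, 5.62 to 5.89 in the day 8 WT arrays, 5.34 to 5.67 in the SCR arrays and 10.28 in the day 8 arrays labelled KD. The first array of each line carries an ESC tag in another label field, and its low pluripotency mean (5.89 in WT, 5.67 in SCR) is that of an EB. SCR array 1 was nearest to WT: its closest array over all genes was WT array 1 (r = 0.9941), against 0.9904 to 0.9932 with its own group. Correlations were lower within the SCR group, at 0.9904 to 0.9932, than within WT, at 0.9937 to 0.9956. SCR array 3 was about as close to SCR array 1 (0.9932) as to SCR array 2 (0.9927). Over all genes, the 3 arrays of a line lay beyond those of the other in 19.6% (SCR higher in 8.33%, lower in 11.3%). Of the 156 genes that were in addition called at least 2-fold higher in SCR, 137 had SCR array 1 as the SCR array nearest to WT, and of the 165 genes lower in the same way 135 had. Separate cultures are not named for the arrays of a group. The p-values therefore weigh a difference against the spread between arrays, which may be technical. That spread is pooled within groups over all 45 arrays, so the wider SCR spread of some genes at day 8 enters only in part. For Myh7 the day 8 SD was 0.33 in WT and 1.61 in SCR (n = 3), with an SE of 0.43 in the fit.

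Of the 18193 genes, 1272 were called between SCR and WT at day 8 (6.99%). SCR was higher in 515 of them (2.83% of all genes) and lower in 757 (4.16%), and the median difference over all genes was -0.02. A difference of at least 2-fold was found in 165 genes higher in SCR (0.907%) and 176 lower (0.967%). The large differences lay on 1 side: 18 genes were at least 8-fold higher in SCR, and 1 gene, Plagl1, was at least 8-fold lower. The number of calls depended on single arrays. It was 817 without WT array 2, 685 without SCR array 2, 642 without SCR array 3 and 1657 without SCR array 1, and it was 560 with the 6 arrays fitted alone. The 15 largest rises and 15 largest falls described here were taken among genes called at least 2-fold whose arrays do not overlap, a choice that favours stable calls, and these 30 kept their calls in each of these fits. Ogn, with overlapping arrays, was 2.34 lower and lost its call in some of them.

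**Figure D1:**
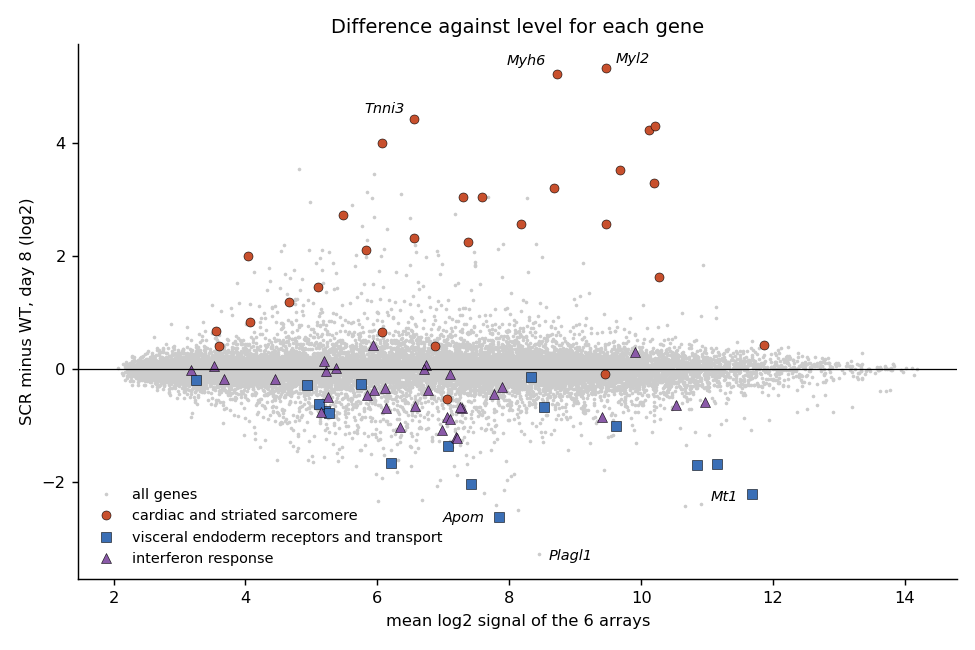
SCR minus WT at day 8 (log2) on the vertical axis against the mean log2 signal of the 6 arrays on the horizontal axis, 1 point for each of 18193 genes, with the members of 3 gene lists drawn as coloured symbols. The sarcomere genes reach 5.31 above zero over a wide range of levels, while the visceral endoderm genes lie at or below -0.16 and down to -2.62.

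Genes of the cardiac sarcomere made up most of the largest rises. Of 29 measured sarcomere genes 22 were called higher in SCR and none lower, with a median difference of 2.32 against -0.02 over all genes. An unadjusted p under 0.05 in the same limma fit was reached by 3276 of the 18193 genes tested. Of the sarcomere genes 25 were higher at that threshold and 0 lower. Of these genes, 11 are among the 15 largest rises of the whole comparison. The mean over the list was 6.18, 5.89 and 6.6 in WT arrays 1 to 3 and 7.66, 9.04 and 8.90 in SCR arrays 1 to 3, and 5.30 in the arrays labelled KD. Arrays 2 and 3 of SCR were therefore highest, SCR array 1 lay between, and the lines did not overlap.

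Myl2, the ventricular myosin regulatory light chain, read 6.86, 5.53 and 8.03 in WT and 11.32, 12.64 and 12.4 in SCR. Each SCR array was above each WT array, and the difference was 5.31 ± 0.49 (SE), a 39.8-fold higher geometric mean, with a limma adjusted p of 4.7e-09. Myh6, the alpha myosin heavy chain of the fetal atrium and adult mouse heart, read 5.7, 5.01 and 7.62 in WT and 10.03, 12.09 and 11.85 in SCR, a difference of 5.21 ± 0.56. WT array 3 was the highest WT array for both genes, and the WT arrays spread over more than 2 log2 units. The slow-twitch and ventricular heavy chain Myh7 read 6.95, 6.83 and 7.46 in WT and 8.46, 11.5 and 10.88 in SCR, a difference of 3.20. The atrial light chains differed as much: Myl7 was 4.30 ± 0.54 higher and Myl4 3.51 higher, with SCR levels of 11.36 to 12.9 and 10.51 to 12.02.

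Thin filament genes moved with the myosins. Tnni3, the adult cardiac troponin I, read 4.48, 3.63 and 4.93 in WT, the dim end of the array, and 7.49, 9.37 and 9.43 in SCR, a difference of 4.42 ± 0.43 (limma adjusted p = 9.9e-09). Tnni1, the troponin I of the early heart and slow muscle, was already at 9.29 to 9.73 in WT and was higher by 1.62. Tnnt2, cardiac troponin T, rose from 8.82, 7.91 and 8.91 to 10.9, 12.32 and 12.27, a 9.74-fold difference, and Tnnc1, cardiac troponin C, was 2.57 higher. Cardiac alpha-actin, Actc1, read 7.68, 7.2 and 9.17 in WT and 11.09, 12.86 and 12.75 in SCR, a difference of 4.22 ± 0.49. The giant ruler protein titin, Ttn, read 4.08, 3.58 and 4.57 in WT and 6.61, 9.62 and 7.96 in SCR, a difference of 3.99. Z-disc and M-band genes followed: Ldb3 and Nebl were each 3.04 higher, Actn2 2.72, Myom1 2.32, Csrp3 2.10 and Tcap 1.44. The myosin-binding protein gene Mybpc3 was 2.24 higher.

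Not every muscle gene was called. Among the 7 sarcomere genes that missed the threshold, the skeletal alpha-actin Acta1 was 0.53 lower (adjusted p = 0.38), desmin, Des, 0.40 higher (0.25), tropomyosin 1, Tpm1, 0.41 higher (0.21, with 1 dim probe set of its other 3 called at 1.40) and the stress-responsive Ankrd1 0.64 higher (0.30), all by limma. The smooth muscle list had 1 of 16 members called, Synpo2, which lost its call without any 1 of 5 of the arrays, and a median of -0.04. Among 12 skeletal muscle and myogenic genes 1 was called, Tnnt3, lower by 0.55 and not without WT array 1 or 3 or SCR array 2 or 3, and their mean was 3.93 to 4.12 in WT and 3.95 to 4.03 in SCR. Calls of 2 low sarcomere genes rested on single arrays: Myl1 (1.17 higher) lost its call without WT array 1, 2 or 3 or SCR array 2 or 3, and Xirp1 (0.83 higher) without SCR array 2.

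**Figure D2:**
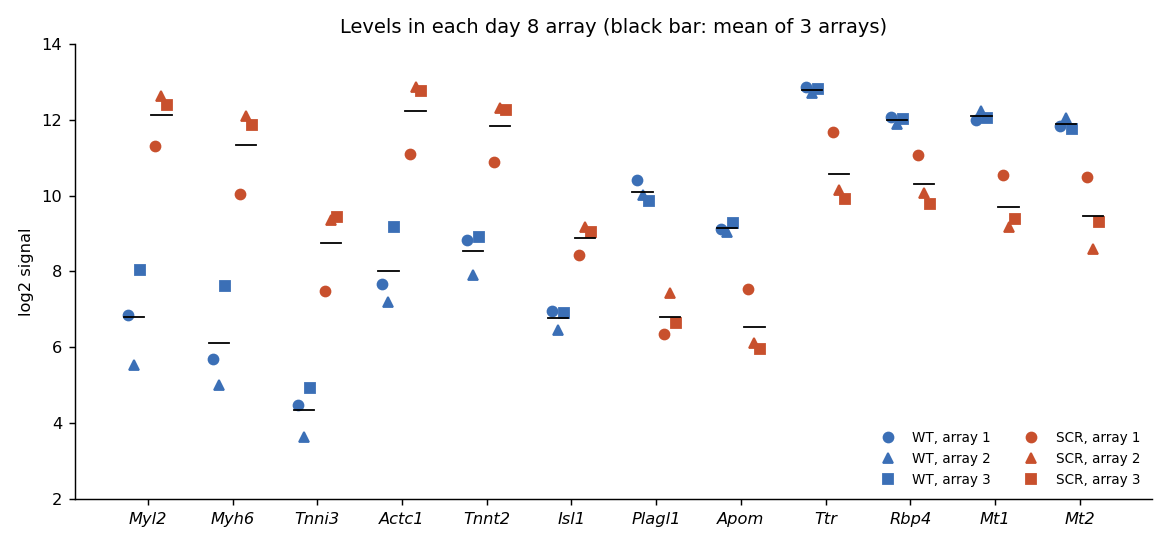
Deposited log2 signals (vertical axis) of 12 genes in each day 8 array, WT in blue and SCR in orange, with circles, triangles and squares for arrays 1, 2 and 3 and a black bar at the mean of 3 arrays. No gene shown overlaps between the lines, and the circle of SCR array 1 is the SCR symbol nearest to WT for each gene but Plagl1.

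The other 4 of the 15 largest rises lie outside the sarcomere list. Tecrl, an endoplasmic reticulum protein of heart, read 3.4, 2.56 and 3.17 in WT and 5.35, 7.22 and 7.14 in SCR, a difference of 3.53. Sphkap, an anchoring protein for protein kinase A, was 3.44 higher, and the small muscle protein Smpx 3.13 higher. Apobec2, a member of the cytidine deaminase family found in muscle, read 4.8, 4.55 and 5.1 in WT and 6.78, 8.26 and 8.68 in SCR, 3.09 higher. In the arrays labelled KD Apobec2 averaged 7.98, and in WT ESCs 7.07, both above its level in the WT EBs, whereas Myl7 averaged 6.0 and Tnnt2 3.42 in the arrays labelled KD, below theirs.

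Cardiac transcription factors also rose, by less than the sarcomere genes. Of 18 measured, 12 were called higher and none lower, with a median of 1.23. Myocd, the myocardin coactivator of serum response factor, read 5.66, 5.35 and 5.44 in WT and 6.56, 8.1 and 8.35 in SCR (2.19 higher, limma adjusted p = 2e-06). Isl1, a factor of second heart field progenitors and of motor neurons, read 6.95, 6.46 and 6.9 in WT and 8.44, 9.17 and 9.05 in SCR, a 4.34-fold difference. The myosin chaperone regulator Smyd1 was 1.98 higher and the homeodomain-only gene Hopx 1.97 higher. T-box genes of the heart were higher too: Tbx18 of the sinus node and epicardium by 1.67, Tbx2 of the atrioventricular canal by 1.5 and Tbx5 by 1.20. Mef2c was 1.33 higher.

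Nkx2-5 read 5.09, 5.05 and 5.04 in WT and 5.21, 7.22 and 6.54 in SCR. SCR array 1 was thus barely above WT, and the difference of 1.26 (limma adjusted p = 0.00041) was 0.82 without SCR array 2 and 1.82 without SCR array 1. Gata5 was 1.81 higher. Prrx1 (0.98 higher) lost its call without WT array 1 or 3 or SCR array 3. With the 6 arrays fitted alone Nkx2-5, Gata5, Irx4 and Prrx1 were not called, which left 8 of the 12. Other cardiac factors did not pass. Gata4 read 6.65, 6.09 and 6.13 in WT and 6.63, 7.16 and 6.49 in SCR (limma adjusted p = 0.25). Gata6 differed by 0.08, Hand1 by 0.02 and Tbx20 by -0.07. Hand2 was bright in both lines at 10.80 and 11.13 (adjusted p = 0.40).

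Calcium handling and ion channel genes were divided. Of 21 measured, 6 were called higher and none lower, with a median of 0.18, and 1 of the 6 is Smpx, which is a muscle protein and not a channel. The sodium-calcium exchanger Slc8a1 read 4.28, 4.73 and 4.21 in WT and 6.52, 7.91 and 7.84 in SCR, 8.09-fold higher. Phospholamban, Pln, the brake on the calcium pump of the sarcoplasmic reticulum, read 4.2, 3.89 and 4.4 in WT and 6.74, 7.46 and 6.98 in SCR, 7.45-fold higher. The ryanodine receptor Ryr2 was 1.83 higher and the L-type calcium channel Cacna1c 0.98 higher, though neither was called with the 6 arrays alone. Kcnj5 (1.43 higher) lost its call without SCR array 3. The natriuretic peptides of the working chambers did not pass: Nppa differed by -0.30 (limma adjusted p = 0.72) and Nppb by -0.20 (0.88). For the pump itself, Atp2a2, the probe sets disagreed. The brightest, which stands for the gene in the counts, differed by 0.23 (adjusted p = 0.28), but in a limma fit of all probe sets 4 of the other 5 were called higher, by 2.29 (adjusted p = 1e-06), 2.27 (1.7e-07), 0.78 (0.023) and 0.55 (0.0087). Those of the calcium channel gene Cacna1d also disagreed in that fit. The brighter differed by 0.19 (adjusted p = 0.62) and the other, nearly as bright, by 1.47 (8.7e-07).

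Genes of muscle energy supply were few among larger lists. In the respiratory chain list 3 of 35 members were called higher, and all 3 are the heart and muscle isoforms of cytochrome oxidase subunits: Cox6a2 by 1.97, Cox7a1 by 1.73 and Cox8b by 0.95, the last not without SCR array 3. Cox6c was called lower by 0.25, and not without any 1 of 5 of the arrays. The list median was 0.08. Among 19 genes of fatty acid oxidation and mitochondrial control, the coactivator Ppargc1a read 3.49, 3.1 and 3.93 in WT and 5.45, 7.16 and 6.73 in SCR (2.94 higher, limma adjusted p = 2.4e-09) and the nuclear receptor Esrrg was 1.87 higher. The other probe sets of Esrrg were dimmer, differed by -0.01 and 0.20 and were not called. Of 32 genes of hypoxia and glycolysis 4 were called higher and 2 lower, led by the muscle isoforms Pgam2 (3.03 higher) and Eno3 (1.17 higher). In the same list Ndrg1 was 1.29 lower. The 4 calls became 11 without SCR array 1 and 2 without WT array 1 or 3 or SCR array 2 or 3.

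Promoter sequences were looked at for the sarcomere genes because they moved together. Serum response factor binds the CArG box, and MEF2 factors bind an A/T-rich site. Both motifs were searched on both strands in RefSeq windows (GRCm38.p6) that run from 250 bases before to 50 after a start. Only the first listed window of each gene was searched, also where a gene has several. The motifs and the printed genes were chosen after the values were seen. Of the 20 called sarcomere genes that have a window, 5 held a CArG box (25.0%), namely Actc1, Myl7, Myl3, Ldb3 and Myom1, against 1.36% of the 14452 tested genes with a window. A MEF2 site was found in Mybpc3 and Ttn, 2 of 20, against 2.05% of tested genes. The searched windows of Myl2, Myh6 and Tnni3 held neither, though Myl2 has 2 listed windows and the other was not searched. A match describes the letters and not a site in use. The share was not taken for sarcomere genes that were not called, so a link between motif and rise was not tested. The windows of Actc1 (chr2:114052826-114053125, minus strand) and Myl7 (chr11:5898733-5899032, minus strand) are shown 5′ to 3′ on the gene's strand with the CArG box in capitals.

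Actc1: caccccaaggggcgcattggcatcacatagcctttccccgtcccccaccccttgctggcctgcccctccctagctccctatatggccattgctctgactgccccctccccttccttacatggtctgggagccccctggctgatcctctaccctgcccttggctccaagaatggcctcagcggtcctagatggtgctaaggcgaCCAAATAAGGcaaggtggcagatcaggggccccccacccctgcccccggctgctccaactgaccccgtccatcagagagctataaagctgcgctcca

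Myl7: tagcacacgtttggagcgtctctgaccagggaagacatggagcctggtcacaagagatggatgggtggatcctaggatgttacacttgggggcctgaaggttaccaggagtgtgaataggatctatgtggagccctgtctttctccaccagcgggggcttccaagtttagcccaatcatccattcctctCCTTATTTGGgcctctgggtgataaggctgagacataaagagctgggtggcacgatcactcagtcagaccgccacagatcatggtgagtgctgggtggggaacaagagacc

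Signalling genes showed smaller groups of rises. In the Notch list 3 of 18 members were called higher and none lower: the ligand Jag1 read 7.52, 6.82 and 7.54 in WT and 9.04, 9.69 and 9.78 in SCR (2.21 higher, limma adjusted p = 1.1e-07), and the target Hey1 of the atrium and vessels was 1.68 higher. The remaining call, the receptor Notch3 (0.62 higher), lost its call without any 1 of 5 of the arrays, and without SCR array 1 the count was 5. The ligands Dll1 and Dll4 and the targets Hes1 and Hes5 were not called. Of 37 genes of BMP and TGF-beta signalling 8 were higher and 2 lower, with a median of 0.14. The BMP-responsive inhibitors of DNA binding were higher, Id3 by 1.12, Id4 by 1.06 and Id1 by 0.90, and so were the ligands Gdf10 (1.75) and Bmp7 (1.08), while the homeobox target Msx2 was 1.05 lower. Id4 lost its call without SCR array 3, and the count of 8 was 5 without WT array 3 or SCR array 2 and 4 without SCR array 3. In the FGF list 4 of 29 members were called higher, all of them feedback inhibitors of the pathway (Spry4, Dusp6, Spred1 and Spred2, by 0.52 to 0.82); only Spred2 of the 4 remained called without WT array 2 or without SCR array 3, and none with the 6 arrays alone. The Wnt antagonist Dkk1 was 1.46 higher and its relative Dkk3 1.03 lower.

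Mesoderm genes outside the heart were mostly not called. Osr1, a zinc finger factor of intermediate mesoderm and of the posterior heart field, was even within each line: 4.08, 4.12 and 4.12 in WT and 5.88, 6.61 and 6.14 in SCR, 4.30-fold higher (limma adjusted p = 4.6e-11). The forkhead genes Foxc1 (1.40 higher) and Foxc2 (1.5 higher) were the only calls in the list of 19 primitive streak and early mesoderm genes, and both lost their calls without SCR array 3. Mesp1, Eomes, Kdr and Pdgfra were not called. None of 28 endothelial genes was called higher and 2 were called lower, Cldn5 by 1.12 and Tek by 0.68, both lost without WT array 3. Of 29 neural genes 1 was called, Isl1, which is also a cardiac gene. The median of the neural list was 0.09.

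On the lower side, genes of the visceral endoderm stood out by share. Of 16 genes for its receptors, carriers and secreted products 9 were called lower in SCR and none higher, with a median of -0.90. The mean over the list was 7.96, 7.90 and 8.01 in WT arrays 1 to 3 and 7.34, 6.58 and 6.55 in SCR arrays 1 to 3, and 7.97 in the arrays labelled KD. SCR array 1, the lowest SCR array for the sarcomere, was the highest here.

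Apom, the apolipoprotein that carries sphingosine-1-phosphate, read 9.12, 9.05 and 9.28 in WT and 7.54, 6.1 and 5.95 in SCR, 6.15-fold lower (-2.62 ± 0.28, limma adjusted p = 1e-07). Transthyretin, Ttr, the carrier of thyroid hormone, read 12.86, 12.7 and 12.82 in WT and 11.67, 10.14 and 9.91 in SCR, 4.66-fold lower. Its partner in vitamin A transport, Rbp4, read 12.07, 11.88 and 12.02 in WT and 11.08, 10.06 and 9.78 in SCR, 3.21-fold lower. The WT arrays were close together for these genes (SD 0.12, 0.08 and 0.10, n = 3), and the SCR arrays were spread out (SD 0.88, 0.96 and 0.68), array 1 being nearest to WT each time. The peptidase Dpp4 was 2.04 lower, the brush border protein villin, Vil1, 1.67 lower and the folate receptor Folr1 1.37 lower. Spink1, Ihh and Rhox5 were called lower too, but each lost its call without SCR array 3 and with the 6 arrays alone. The endocytic receptors Cubn (-0.76, adjusted p = 0.18) and Lrp2 (-0.62, adjusted p = 0.22) did not pass in the limma fit.

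The transcription factors of that layer pointed the same way in part. Hnf4a, a master regulator of visceral endoderm and liver, read 8.12, 7.73 and 7.93 in WT and 7.2, 6.37 and 6.13 in SCR, 2.57-fold lower, and Foxa3 was 2.86-fold lower. The endocytic adaptor Dab2 was 2.49-fold lower. Sox17 (-0.16), Foxa2 (-0.10) and Hhex (0.14) were not called, and the chemokine receptor Cxcr4 was called higher by 0.84 but not without WT array 2.

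Plasma proteins shared with the fetal liver were lower in 8 of 24 members and higher in none, with a median of -0.34. Besides Ttr and Rbp4 these were the fibrinogen chain Fgb (1.72 lower), Apoa1 (1.47), Apoa4 (1.40), Serpina1b (1.14), plasminogen, Plg (1.13), and Apoe (0.86). Without SCR array 3 the count was 5, since Apoa1, Serpina1b and Apoe lost their calls. The other probe set of Apoa4 was nearly as bright and only 0.37 lower, and it was not called (adjusted p = 0.3 in a limma fit of all probe sets). The list did not move as 1 block: Afp, the major yolk sac protein, read 8.22, 7.42 and 7.94 in WT and 8.76, 8.29 and 8.66 in SCR, above WT in each array without passing (0.71, limma adjusted p = 0.39), and Alb differed by 0.20.

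Further genes among the 15 largest falls are in none of the gene lists. The trefoil peptide Tff3 read 9.19, 8.87 and 8.97 in WT and 7.6, 6.38 and 5.82 in SCR, 5.32-fold lower. The galectin Lgals2 read 9.57, 9.32 and 9.25 in WT and 8.15, 6.25 and 6.21 in SCR, 5.70-fold lower. Hemopexin, Hpx, was 4.22-fold lower, the calcium-binding S100g 3.94-fold, the membrane protease Tmprss2 3.91-fold and the fatty acid receptor Ffar4 3.82-fold lower. The carbonic anhydrases Car4 and Car3 were 4.57-fold and 4.46-fold lower. Keratins and junction genes of epithelium were lower in part, with 3 of 18 members called lower in the list of surface epithelium, of which Krt18 and Krt15 were lost without WT array 1 or 2 or SCR array 2 or 3. Krt7 read 8.01, 8.25 and 8.43 in WT and 6.85, 6.58 and 6.54 in SCR, and the claudin Cldn7 was 1.17 lower and Epcam 0.71 lower. In whole EBs these epithelial and endoderm genes fell in the same arrays in which the cardiac genes rose, and the part of tissue make-up in either was not tested.

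The metallothioneins Mt1 and Mt2 fell. These small proteins bind zinc and copper and are induced by metals through metal response elements. Mt1 read 11.99, 12.24 and 12.06 in WT and 10.55, 9.17 and 9.39 in SCR, 5.25-fold lower (limma adjusted p = 5.5e-07), and Mt2 read 11.84, 12.06 and 11.75 in WT and 10.49, 8.58 and 9.3 in SCR, 5.38-fold lower. The other measured metallothioneins, Mt3 and Mt4, were dim and differed by 0.14 and -0.15 (limma adjusted p = 0.76 and 0.86). The zinc importer Slc39a4, on chromosome 15, read 7.49, 8.24 and 7.78 in WT and 6.12, 5.08 and 5.33 in SCR, 5.02-fold lower. In the arrays labelled KD the means were 12.54 for Mt1, 12.62 for Mt2 and 9.74 for Slc39a4, above WT. Of the 17 measured members of the metallothionein and oxidative stress list 5 were called lower and 1 higher. Among the others the quinone reductase Nqo1 was 1.14 lower and Srxn1 0.77 lower. The RefSeq windows of Mt1 (chr8:94178839-94179138, plus strand) and Mt2 (chr8:94172368-94172667, plus strand) are shown because both genes fell by similar amounts; the capitals mark the metal response elements, TGCACNC or TGCGCNC on either strand. Mt1 held 3 and Mt2 held 4, and 32.7% of tested genes with a window held at least 1.

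Mt1: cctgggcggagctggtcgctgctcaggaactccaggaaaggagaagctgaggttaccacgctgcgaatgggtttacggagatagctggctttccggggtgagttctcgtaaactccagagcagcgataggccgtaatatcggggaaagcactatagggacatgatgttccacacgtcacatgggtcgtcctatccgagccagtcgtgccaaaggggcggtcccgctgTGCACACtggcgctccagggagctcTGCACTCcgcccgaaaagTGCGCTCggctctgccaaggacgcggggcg

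Mt2: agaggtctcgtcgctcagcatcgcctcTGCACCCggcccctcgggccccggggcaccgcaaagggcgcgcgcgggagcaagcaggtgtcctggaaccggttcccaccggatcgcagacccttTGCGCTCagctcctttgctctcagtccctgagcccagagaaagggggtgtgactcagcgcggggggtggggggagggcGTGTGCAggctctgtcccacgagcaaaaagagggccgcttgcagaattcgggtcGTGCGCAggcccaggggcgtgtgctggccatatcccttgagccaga

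Plagl1, an imprinted zinc finger gene expressed from the paternal allele, was the largest fall of the comparison. It read 10.4, 10.01 and 9.87 in WT and 6.34, 7.43 and 6.64 in SCR, 9.78-fold lower (-3.29 ± 0.38, limma adjusted p = 2.2e-07). Among the 15 largest falls it was the one in which SCR array 1 was the lowest SCR array. The arrays labelled KD averaged 3.91 and WT ESCs 3.55. The other probe sets of the gene were dimmer and lower by 0.90 (adjusted p = 0.012) and 0.61 (adjusted p = 0.084) in a fit of all probe sets. Imprinted genes had 6 of 29 members called lower and 1 higher, with a median of -0.07. The maternally expressed RNA Meg3 was 1.27 lower, Dcn and Grb10 1.09 and 1.08 lower, and the cell cycle inhibitor Cdkn1c 1.08 higher, which did not hold without WT array 2 or SCR array 3. Meg3 was not called when the first array of both lines was left out, and Dcn not with the 6 arrays alone.

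**Figure D3:**
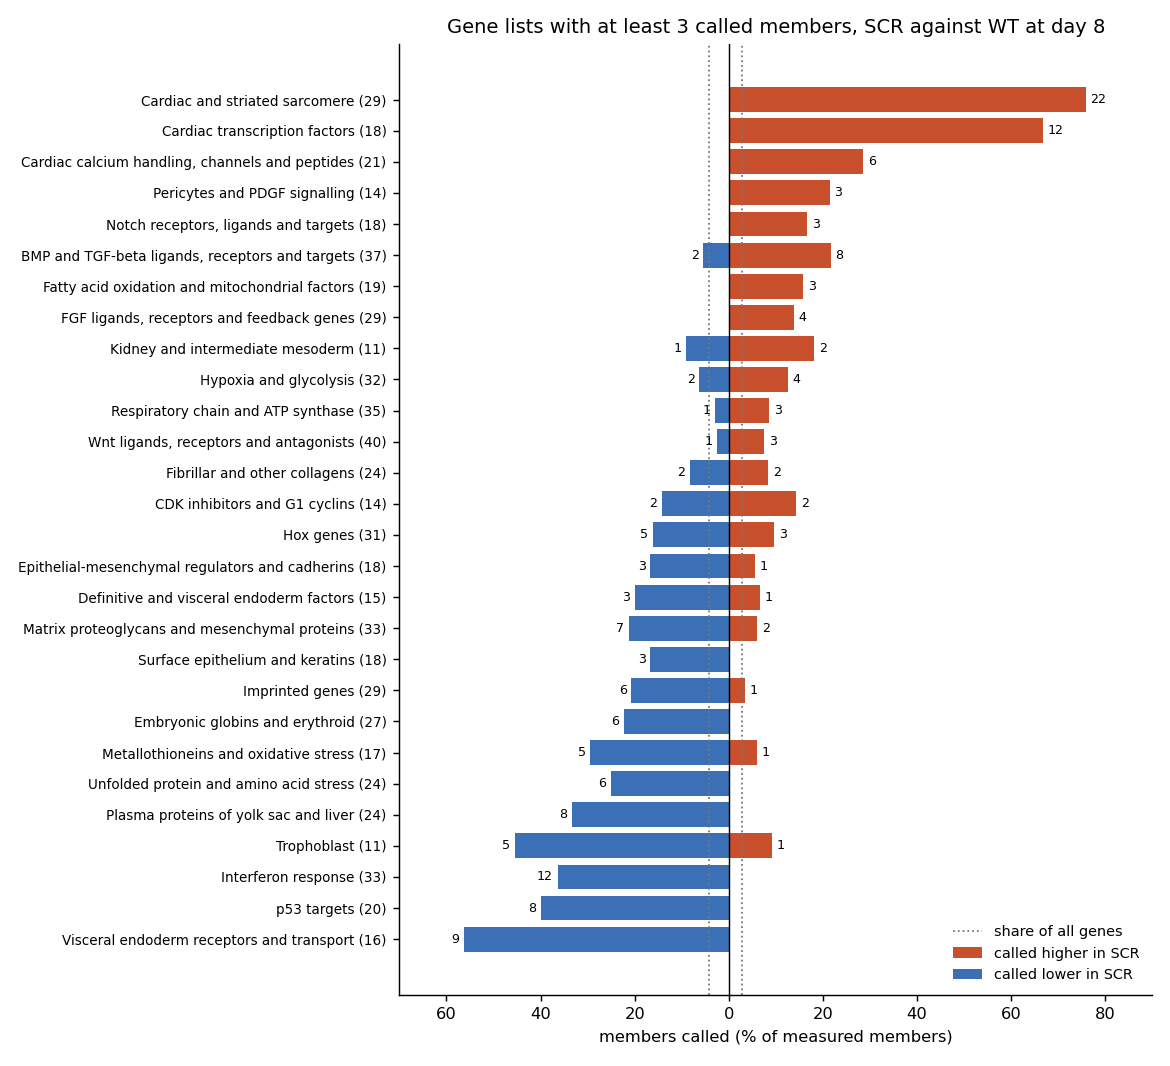
Share of measured members called in each gene list with at least 3 calls, in percent, drawn to the right for genes higher in SCR and to the left for genes lower, with the number of calls beside each bar and the number of measured members after each name. Dotted lines mark the share of all genes (2.83% higher, 4.16% lower), and the sarcomere list (22 of 29) and the visceral endoderm list (9 of 16) reach farthest.

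Interferon response genes were lower in 12 of 33 members and higher in none, with a median of -0.46. The tetherin gene Bst2 read 7.66, 7.81 and 7.91 in WT and 6.79, 6.5 and 6.48 in SCR (1.20 lower, limma adjusted p = 5.3e-05), the deconjugase Usp18 was 1.23 lower, Ifitm3 0.86 lower and the RNA sensor Ifih1 0.76 lower. These 4 kept their calls without any 1 of the arrays. The other 8, among them Ifit1, Ifit3 and Rsad2, did not, and the count was 6 without WT array 2, 6 without SCR array 2 and 4 without SCR array 3. Targets of p53 were lower in 8 of 20 members and higher in none, with a median of -0.38. The proapoptotic Pmaip1 read 7.21, 7.16 and 7.19 in WT and 6.09, 5.15 and 6.21 in SCR, 2.58-fold lower, and Gtse1 was 0.62 lower. Without WT array 2 or SCR array 2 the count was 4, and without SCR array 3 it was 5; Cdkn1a (0.49 lower, adjusted p = 0.034) lost its call without any 1 of 4 arrays.

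Stress genes of amino acid supply and protein folding were lower in 6 of 24 members and higher in none, with a median of -0.35. Atf4, the transcription factor of this response, read 10.88, 11.36 and 11.12 in WT and 10.02, 9.95 and 10.22 in SCR, 1.06 lower, on chromosome 15; its other probe sets were not called. The amino acid transporter Slc7a5 was 0.74 lower and Trib3 1.07 lower, the latter not without WT array 2 or SCR array 2. Either omission left 3 calls in the list. In the limma fit no member was called among genes of heat shock and the immediate early response (25). None was called among those of DNA replication and mitosis (32) or of cytosolic ribosomal proteins (24). An unadjusted p under 0.05 was reached by 3276 of all 18193 genes, and by 3, 3 and 4 members of these lists. Their medians were -0.12, 0.03 and -0.01.

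Erythroid genes were lower in 6 of 27 members and higher in none, with a median of -0.47. The erythroid factor Klf1 read 7.54, 7.95 and 7.72 in WT and 6.82, 6.44 and 6.63 in SCR, 2.15-fold lower. The adhesion molecule Icam4 was 1.23 lower and Blvrb 0.91 lower, while Rhag (1.25), Car2 (1.12) and Fech (0.47) lost their calls without SCR array 2, which left 3. The embryonic globins did not pass: Hbb-bh1 read 14.01, 13.95 and 13.92 in WT and 13.64, 13.47 and 13.65 in SCR, near the top of the scale. Hba-x read 12.83, 13.26 and 12.88 in WT and 12.27, 12.59 and 12.16 in SCR (limma adjusted p = 0.12).

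Hox genes changed in both directions, 3 of 31 higher and 5 lower, with a median of -0.02. Hoxc8, a thoracic Hox gene on chromosome 15, read 8.99, 8.96 and 9.04 in WT and 7.46, 6.98 and 6.97 in SCR, 3.63-fold lower (limma adjusted p = 6.9e-07), and Hoxb6 was 1.63 lower. Hoxc10 and Hoxc9, of the same cluster as Hoxc8, were 0.97 and 0.53 lower, and Hoxd1 was 0.73 lower. Hoxc10, Hoxc9 and Hoxd1 were not called with the 6 arrays alone, and Hoxc9 not without WT array 2 or 3 or SCR array 1 or 3. Hoxa2, an anterior gene, was dim and 1.12 higher. Hoxa4 and Hoxb4, also anterior, were 0.73 and 0.68 higher but lost their calls without SCR array 3; the 3 higher calls became 5 without SCR array 1 and 1 without SCR array 3. Matrix genes were lower in 7 of 33 members and higher in 2, with Fbln5 and Timp1 1.15 and 1.13 lower; with the 6 arrays alone 2 of the 7 were called. Ogn, the leucine-rich repeat protein osteoglycin, read 7.88, 7.19 and 6.45 in WT and 7.47, 3.98 and 3.06 in SCR. There SCR array 1 lay within the WT range, and the call was lost without SCR array 2 or 3. Of 11 trophoblast genes 5 were called lower (Plac1, Tfap2c, Cdx2, Cited1 and Ascl2, by 0.70 to 1.21) and 1 higher, but 2 of the 5 were called without WT array 2, 1 without WT array 3 or SCR array 2, and none without SCR array 3.

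Among pluripotency genes 1 of 25 was called: the naive factor Tfcp2l1, also known from epithelia, read 8.29, 8.21 and 7.94 in WT and 7.18, 6.19 and 5.41 in SCR, 3.70-fold lower. Pou5f1 read 6.12, 5.25 and 5.46 in WT and 5.23, 4.6 and 4.11 in SCR (-0.96, limma adjusted p = 0.12), and Nanog was lower by 1.03 without passing (0.19). In the arrays labelled KD these averaged 11.47 and 11.32. In the germline list 1 of 21 measured members was called higher, the RNA helicase Mov10l1 (1.69 higher), and 1 lower, against 2.83% and 4.16% of all genes. The median of that list was -0.14, so Mov10l1 did not stand for the list.

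The neighbouring stages placed these differences in time. At day 4, 352 genes were called between SCR and WT (1.93%), and at day 12, 2678 (14.7%). Of the 165 genes at least 2-fold higher at day 8, 4 were called higher at day 4 and 142 at day 12, against 0.61% and 7.05% of all genes. Of the 176 at least 2-fold lower, 16 were called lower at day 4 and 85 at day 12, against 1.32% and 7.67% of all genes. Across genes, which are not independent replicates, the day 8 differences correlated at 0.623 with those of day 12 and at 0.221 with those of day 4. Of the day 8 calls, 742 were called in the same direction at day 12, 58.3% of the day 8 calls and 27.7% of the day 12 calls, and 16 in the opposite direction.

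The difference itself changed between day 4 and day 8 in 328 genes (1.8%), upward in 196 (1.08%) and downward in 132 (0.726%). The total was 720 without SCR array 1, 160 without SCR array 2 and 180 without SCR array 3. No sarcomere gene was called at day 4, against 1.93% of all genes, when the list mean was 5.23 in WT and 5.24 in SCR. For 20 of the 29 the change of the difference passed the test, all upward, against 1.08% of all genes. Myl2 stood at 5.48 in WT and 5.05 in SCR at day 4, so its difference moved by 5.74 (limma adjusted p = 7.8e-06). At day 12 it stood at 9.79 in WT and 12.77 in SCR, a difference of 2.98. SCR was at 12.12 on day 8, close to its day 12 level, and the change of the difference from day 8 to day 12 did not pass (adjusted p = 0.096). The level of Isl1 was 8.39 in WT and 8.70 in SCR at day 4, and 6.77 in WT and 8.89 in SCR at day 8, so there it was the WT level that was lower at the later day. Among cardiac transcription factors the change from day 4 passed for 11 of 18, all upward, and for none between day 8 and day 12.

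**Figure D4:**
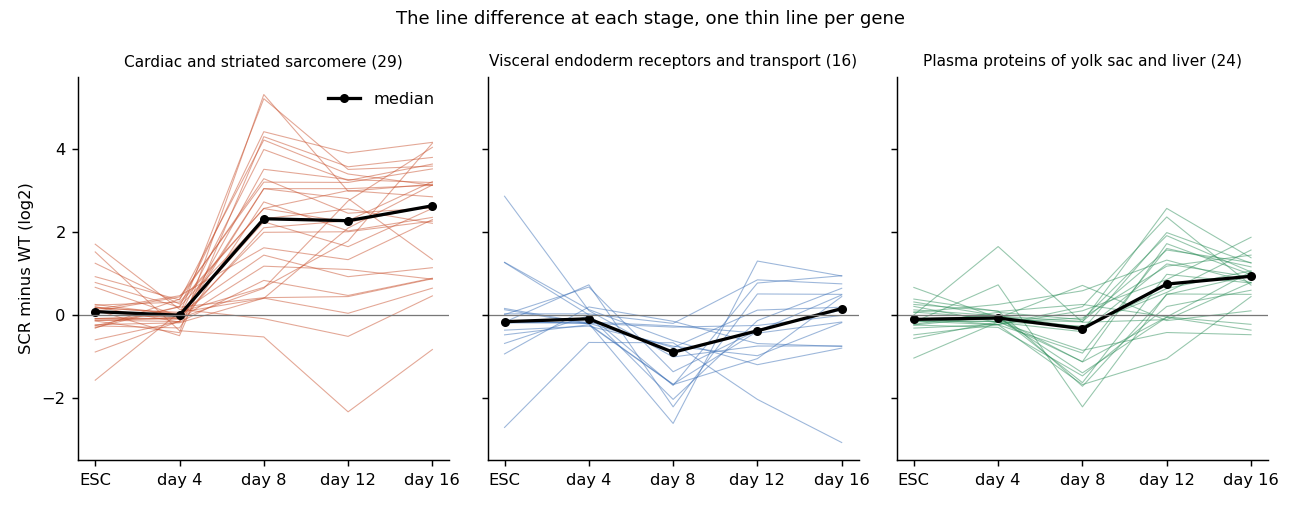
SCR minus WT (log2, vertical axis) in ESCs and at days 4, 8, 12 and 16 for 29 sarcomere, 16 visceral endoderm and 24 plasma protein genes, with a thin line for each gene and the median in black. The sarcomere median goes from -0.01 at day 4 to 2.32 at day 8 and 2.63 at day 16, while the plasma protein median goes from -0.34 at day 8 to 0.74 at day 12.

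Day 8 and day 12 differed most in plasma protein genes. SCR was lower in 8 of 24 at day 8, and at day 12 it was higher in 11 and lower in 1, with the median going from -0.34 to 0.74. For 10 of the 24 the change passed the test, all in that direction. Apom was 2.62 lower at day 8 and 1.30 higher at day 12, when WT had come down to 5.64, a change of 3.92 (limma adjusted p = 7.3e-08). Plg was 1.13 lower at day 8 and 1.72 higher at day 12, and the peptidase Enpep 1.87 lower and then 1.46 higher. Alb, not called at day 8, was 2.36 higher at day 12. Endothelial genes went the same way: 15 of 28 were called higher at day 12, and for 9 the change passed, among them Cdh5 (-0.17 at day 8, 1.95 at day 12). In all, the difference changed between day 8 and day 12 in 250 genes (1.37%). SCR minus WT was higher at day 8 than at day 12 in 76 of them (0.418%) and lower at day 8 in 174 (0.956%). Plagl1 and Hoxc8 stayed lower: their differences at day 12 were -3.55 and -2.91.

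Progress of the WT line gives another view of day 8. Between day 4 and day 12, 1692 genes rose at least 2-fold in WT (9.3%), and neither of these groups shares an array with the comparison. Of these 134 were called higher in SCR at day 8 (7.92%, against 2.83% of all genes) and 221 lower (13.1%, against 4.16%), with a median difference of -0.11. Calls in both directions were thus more frequent among these genes, and the lower ones more numerous. Both sets of calls use the same estimate of each gene's spread, and the shares of all genes include genes with low signals. The shares alone therefore do not show a link with differentiation, which was not tested. As a single measure, the slope of each array's deviation from WT day 4 on the WT change, over the 2692 genes that moved either way, was 0.781, 0.781 and 0.757 in WT and 0.794, 0.738 and 0.703 in SCR. The ranges overlap.

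Chromosome 15 was lower as a whole. Over genes with a mean above the median gene, 94 of 359 on chromosome 15 were called lower in SCR (26.2%) and 2 higher, against 5.67% lower over all 9082 such genes. The median difference was -0.26 on chromosome 15, 1.19-fold, and between -0.04 and 0.02 on each other chromosome, and 88.3% of its genes lay below zero. The median was negative in each sixth of the chromosome by gene order, from -0.18 to -0.32. The same was seen at each other stage, with medians of -0.35 in ESCs, -0.35 at day 4, -0.20 at day 12 and -0.26 at day 16. A relative level was taken for each array, the median deviation of chromosome 15 genes from their means over the 45 arrays less that of all genes above the median level. It was -0.18, -0.03 and -0.07 in the WT arrays of day 8, -0.36, -0.27 and -0.34 in SCR and 0.34, 0.44 and 0.38 in the arrays labelled KD. The lines do not overlap at day 8. Of the 757 genes called lower, 119 are on chromosome 15 and 638 elsewhere, and of the 176 at least 2-fold lower 24 are. Slc39a4, Lgals2, Hoxc8, Krt7, Dab2 and Atf4 lie there, with differences of -1.06 to -2.51, beyond the median of the chromosome. The number of copies of the chromosome was not tested.

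**Figure D5:**
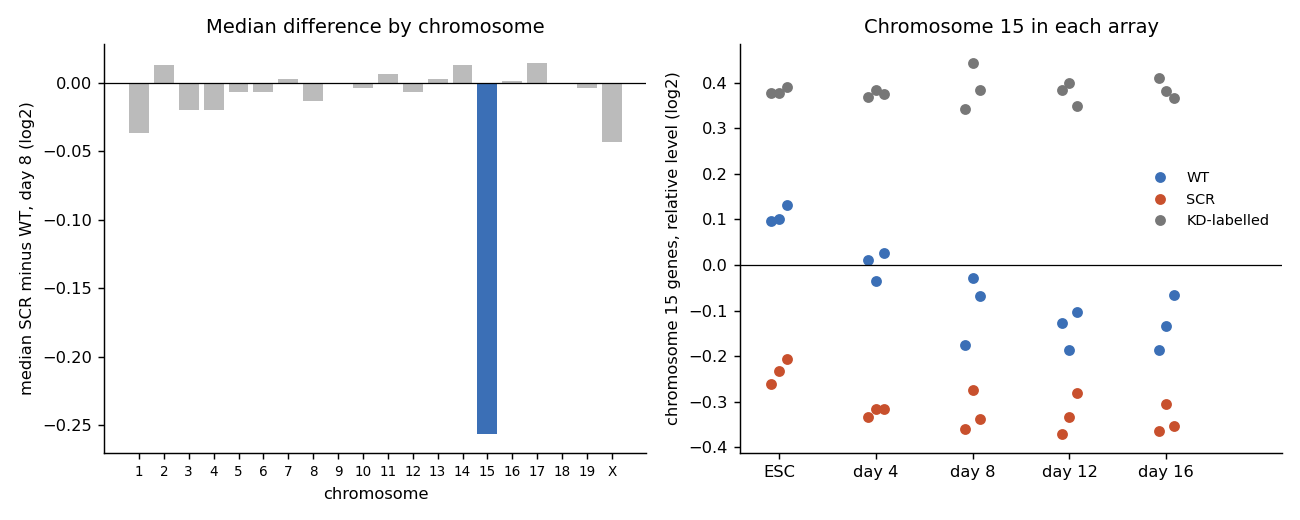
Left, the median SCR minus WT difference at day 8 (log2) for each chromosome, over genes above the median level, as bars from zero. Right, the relative level (log2) of 359 chromosome 15 genes in each array, their median deviation from the gene means over all arrays less that of all genes, at each stage, where the SCR points lie below the WT points and those labelled KD above both.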

How the data were processed

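RNA of whole EBs was hybridised to Affymetrix 3' mouse arrays, and the 6 arrays compared were fitted together with all others of the series. The values are log2 signals that the authors processed and deposited with 2 decimals. RMA, Partek 6.6 and the Affymetrix Expression Console are listed in the submitters' processing notes, without their roles or order. Array medians ran from 5.02 to 5.18, and the number of arrays limits the precision.

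Probe sets were named by the platform annotation (34945 with 1 symbol, 932 with several and 9160 without a listed gene, of which the last 2 kinds were left out). Each of 18193 genes was represented by its brightest probe set on average over the 45 arrays, with no filter on level. A mean for each of 15 groups was fitted with limma 3.58.1 (R 4.3.3), with 30 residual and 5.17 prior degrees of freedom, and p-values were Benjamini-Hochberg adjusted over all genes. Changes of the line difference from day 4 to day 8 and from day 8 to day 12 were contrasts of the same fit. The gene lists (51) are described by counts and medians, with no test of a list. Chromosomes and promoter windows are those of RefSeq (GRCm38.p6). The members, the lists and the rule for named genes were chosen with earlier results of these data known. That rule takes Strip2, the 15 largest rises and 15 largest falls among non-overlapping genes called at least 2-fold, the 5 largest in each direction of each change between days among genes called there and at day 8, and any list member, but no clone or locus symbol.

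Replicate numbers were taken from the chip order in the source names, since the SCR titles are numbered 4 to 6. Same-numbered day 8 arrays of SCR and WT deviated together (correlations of 0.277, 0.375 and 0.266). With the KD-labelled arrays included, 6 of 9 day 8 arrays correlated best with their own number in another line. Same-number correlations then ran from -0.02 to 0.39, so the pairing is not firm. The main fit did not use it, and a fit with the chip number as a block within each stage was an alternative. At day 4 and day 16 the numbers did not pair the lines (correlations of -0.221 to 0.194 and -0.148 to 0.195). The other alternatives were the 6 arrays alone, median centring, cyclic loess, quantile normalization, genes above the median level, a mean-variance trend with robust prior, other probe sets, and leaving out each array or the first array of both lines. The procedure was tested on simulated data, with normal noise of the same spread for a gene in every group. That setting does not cover the unequal spread of SCR and WT at day 8.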

Additional observations from a re-analysis of the deposited data

Results flagged for a closer look

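The difference between SCR and WT depended on the day in 20 cases taken by the rule for named genes, each from a test of the change itself in the limma fit. Between day 4 and day 8 the difference moved up by 5.74 in Myl2, 5.21 in Myh6, 4.80 in Myl7, 4.22 in Tnni3 and 4.02 in Ttn, all of the sarcomere. Over the same days it moved by -3.24 in Car3, -3.05 in Plagl1, -2.94 in Ttr, -2.54 in Lgals2 and -2.52 in Tff3. Car3 was 1.08 higher in SCR at day 4, a difference that did not pass (limma adjusted p = 0.19), and 2.16 lower at day 8.

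Between day 8 and day 12 the difference was larger at day 8 by 2.75 in Bmper, a BMP-binding protein, by 1.94 in the platelet factor Pf4, by 1.68 in the peptidase Mme, by 1.66 in the receptor subunit Gabra3 and by 1.42 in Rassf5. Bmper read 6.15, 6.03 and 5.99 in WT and 7.22, 8.47 and 8.04 in SCR at day 8, and at day 12 its means were 9.03 in WT and 8.14 in SCR. The difference of Pf4 at day 8 was lost without WT array 2 or 3 or SCR array 2. In the other direction, the day 8 difference less the day 12 difference was -3.92 in Apom, -3.33 in Enpep, -2.85 in Plg, -2.72 in Ttr and -2.55 in the epithelial actin-binding gene Pof1b, so in these SCR minus WT was higher at day 12. Pof1b read 6.59, 6.22 and 6.65 in WT and 6.08, 4.31 and 5.0 in SCR at day 8, 1.36 lower, and was 1.19 higher in SCR at day 12. Ttr is in both sets, because its difference was 0.72 at day 4, -2.22 at day 8 and 0.50 at day 12.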

How the results depend on the processing

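Of the called genes, 212 are list members or named by rule. Each kept its direction in every setting that tested it (124 of the 212 where only genes above the median level were tested), but the threshold was not kept by all: 122 kept their calls without any single array and 90 lost them without at least 1. Leaving out single arrays gave 642 to 1657 calls in all, 253 to 701 higher and 389 to 956 lower, 160 to 720 changes between day 4 and day 8, 261 to 492 calls of at least 2-fold and 173 to 304 changes between day 8 and day 12. With the 6 arrays alone there were 560 calls, 247 higher and 313 lower, of which 503 were among the 1272; changes between days could not be computed in that fit. With genes above the median level alone, fewer genes were tested and 961 were called, but the counts did not shrink alike. Calls of at least 2-fold numbered 142 against 341 in the main fit. Changes from day 4 numbered 172 against 328, and changes to day 12 44 against 250. Without the first array of both lines the changes from day 4 numbered 498. The fit with the replicate block, which uses the pairing by chip number, made 1486 calls, 1223 of them shared, and of the 212 genes 5 lost their call: Gata3 (adjusted p = 0.052), Igtp (0.052), Oas1a (0.055), Tgfbr1 (0.051) and Cox6c (0.069). No count moved by over 1.5 times under it. Median centring put 37.4% of calls on the higher side against 40.5%. Under the probe set with the largest variance, 2 uncalled list members reversed and were called: Gp1bb at 0.77 (adjusted p = 0.04) and Ret at 0.83 (0.0048). The probe set chosen also ended 17 of the 212 calls, among them Atf4, Bmp7 and Mycn. The cause of these differences was not tested.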
